A study of Mus musculus with 36 samples.

Results

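The genes described here encode subunits of potassium channels and number 89 of the 38924 genes counted in each library. They are the protein-coding genes whose symbol has the form Kcn followed by a family letter or letters and a number, except Kcnh4, Kcnq1 and Kcnk9, which the rule leaves out and which are not analysed here. RNA came from hypothalamus, cortex and brainstem of C57BL/6 mice, with 36 libraries in all and 3 for each of 4 genotypes in each tissue. The Hcrt/Orexin-ataxin-3 transgenic mice, called transgenic below, express ataxin-3 from the hypocretin promoter, and their hypocretin neurons are lost. The Hcrt/Orexin knockout mice lack the Hcrt gene product and carry no such transgene. Each line has its own wild type, Hcrt/Orexin-ataxin-3 wildtype and Hcrt/Orexin wildtype, called the transgenic-line and the knockout-line wild type below. The labels give no age or sex and do not say whether the tissues came from the same animals or each library from a separate one, so p-values measure only the spread between these libraries, which may be technical. The study asked which transcripts differ when the hypocretin peptide, or the cells that make it, are missing.

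Potassium channels let potassium leave a cell when they open, and so set its resting potential, end each action potential and limit how often it fires. The pore is built from alpha subunits of several families, among them the voltage-gated (Kv), inward-rectifying, tandem-pore leak, calcium-activated and sodium-activated channels. Silent Kv subunits form no channel alone but modify the Kv2 channels that they join, and the Kv beta, KChIP and KCNE proteins are accessory subunits that act on gating or transport of a pore. The 89 genes fall into 16 such families.

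Counts assigned to genes ran from 21915540 to 47057537 per library. Levels are given as CPM, gene counts scaled to a common library size with TMM factors, and levels of different genes are compared only as CPM per kilobase of exon. Hcrt itself stood at 0.996 to 1.14 CPM in knockout hypothalamus and 51.4 to 81.2 CPM in its wild type, and at 2.07 to 2.46 CPM in transgenic hypothalamus against 101 to 196 CPM. The tissue markers mostly followed the labels, with 6 hypothalamic genes summing to 768 to 1346 CPM in hypothalamus and at most 4.04 CPM elsewhere. The 5 cortex genes summed to 1655 to 1836 CPM in cortex, but also to 153 to 232 CPM in brainstem. Brainstem libraries differed in 4 cerebellum markers (Pcp2, Gabra6, Cbln1 and Cbln3), which summed to 94.5 to 579 CPM there. The part of these transcripts in the brainstem levels was not tested. In hypothalamus, 5 pituitary genes summed to 26070 and 13900 CPM in replicates 1 and 3 of the transgenic-line wild type and 19090 CPM in replicate 3 of the knockout-line wild type, and to at most 56.1 CPM in the others. Genes of nasal epithelium summed to 2003 CPM in replicate 1 of the transgenic group. Slc17a7, a vesicular glutamate transporter gene of cortical neurons, was at 118 and 87.7 CPM in replicates 1 and 3 of the knockout-line wild type and at most 12.3 CPM in the other wild-type hypothalamus libraries. Without these 5 libraries, hypothalamus keeps 2 transgenic and 3 knockout libraries but only replicate 2 of each wild type. Values without them thus compare the tissues with 2 wild-type libraries and set each genotype against 1, which is assumed to vary like the other groups.

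Potassium channel genes took a smaller share of the counts in hypothalamus than in the other tissues. Their summed count was 0.315% to 0.403% of gene counts in the hypothalamus libraries of all genotypes, 0.536% to 0.603% in cortex and 0.567% to 0.636% in brainstem, so the hypothalamus range lay below both others. The summed level of 4 neuron markers (Snap25, Rbfox3, Syt1 and Stmn2) was also lower there, at 2544 to 2966 CPM in wild types against 5834 to 6131 CPM in cortex and 4775 to 5227 CPM in brainstem. In bulk tissue, fewer cells of a type and less RNA per cell cannot be told apart, and the part of neuron content in the channel levels was not tested.

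Per kilobase, the most abundant member in hypothalamus and brainstem was Kcnj10, the inward rectifier of astrocytes and oligodendrocytes. It stood at 99.5 ± 6.94 CPM per kilobase in hypothalamus and 188 ± 12.4 in brainstem (SD, n = 6 wild-type libraries), against 44.7 ± 2.16 in cortex. Next in hypothalamus came the beta subunit gene Kcnab2 at 30.01 ± 1.502 and the leak channel gene Kcnk1 at 25.5 ± 0.858. They were followed by Kcnip4, Kcnd2 and Kcna6 between 23.9 and 23.1, whose neighbours in this order differed by less than their SD. Kcnc4 stood at 20.1 ± 1.58. Cortex led with Kcnab2 at 80.1 ± 3.52 and the axonal Kv1 subunit gene Kcna1 at 69.1 ± 1.81, with Kcnj4, Kcnj10, Kcnk1, Kcnj9 and Kcnj3 between 49.6 and 39.0. In brainstem Kcna1 stood at 158 ± 20.7 and Kcnab2 at 99.1 ± 8.51, with Kcnk1, Kcnab3, Kcnc1 and Kcng4 between 64.1 and 28.7. Only Kcnj10, Kcnab2 and Kcnk1 were among the 8 highest members in every tissue.

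Tissue differences covered most of the members. Of the 89, 80 passed the filter on low counts in the fit of all 36 libraries, and the comparisons used the 6 wild-type libraries of each tissue. Between hypothalamus and cortex, 70 of 80 differed at an edgeR adjusted p under 0.05, where 75.9% of all tested genes did. Of these, 23 were higher and 47 lower in hypothalamus, against 38.7% and 37.2% of all genes. At a change of at least 2-fold, 12 were higher and 33 lower, against 12.2% and 12.5% of all genes. The median log2 fold change of the members was -0.77, beside 0.03 over all genes. Between hypothalamus and brainstem 73 of 80 differed (68.2% of all genes), 34 higher and 39 lower in hypothalamus (36.2% and 32%), and 16 and 19 by at least 2-fold (9.3% and 7.91%). Between cortex and brainstem 69 of 80 differed (78.6% of all genes), 35 higher and 34 lower in cortex (38.7% and 39.8%), and 41 by at least 2-fold (28.2%), 24 higher and 17 lower (14.8% and 13.5%). By mean level, 18 of the 80 were highest in hypothalamus, 32 in cortex and 30 in brainstem, where 30.4%, 37.2% and 32.5% of all tested genes were.

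**Figure D1:**
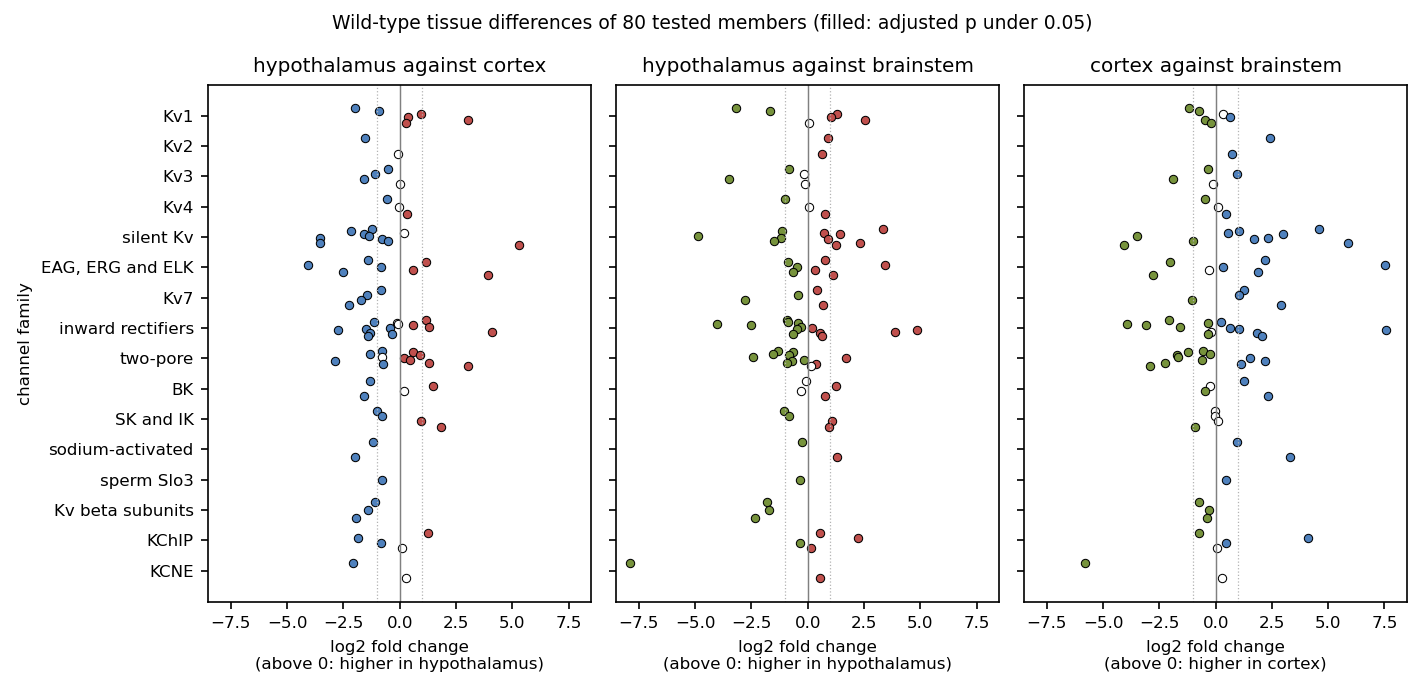
Log2 fold changes (x axis) of the 80 tested members by family (y axis; the family named two-pore holds the tandem-pore genes) in the 3 wild-type tissue comparisons, 6 libraries against 6. Each point is a gene, filled where the edgeR adjusted p was under 0.05, with dotted lines at 2-fold. In hypothalamus against cortex 47 filled points lie below 0 and 23 above, while cortex against brainstem is split 35 to 34.

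Promoter sequences of genes with opposite tissue peaks are shown to compare their base composition, and the genes were picked for their tissue differences. RefSeq windows on GRCm38.p6, from 250 bases before to 50 after the start of transcription, were matched by symbol for 66 of the 89 genes. The dinucleotide CG, the substrate of DNA methylation, occurred a median of 10 times in the members and 7 times in all 32851 windows. Among those that passed the filter on low counts, its median was 19 for the 20 genes highest by mean level in cortex, 9.5 for the 22 highest in brainstem and 9.5 for the 16 highest in hypothalamus. CG was present in 65 of 66 members and 94.6% of all windows. The E-box CANNTG occurred in 47 of the 66 and 72.3% of all windows, TATAAA in 3 and 13.6%, and GGGCGG, which contains CG, in 32 and 35.7%, each searched on both strands. The windows below run 5′ to 3′ on the gene's strand, with CG in capitals, for a cortex gene (Kcnj4, chr15:79505192-79505491, minus strand), a brainstem gene (Kcng4, chr8:119635631-119635930, minus strand) and the hypothalamus genes Kcna5 (chr6:126535506-126535805, minus strand) and Kcnj5 (chr9:32344295-32344594, minus strand).
Kcnj4: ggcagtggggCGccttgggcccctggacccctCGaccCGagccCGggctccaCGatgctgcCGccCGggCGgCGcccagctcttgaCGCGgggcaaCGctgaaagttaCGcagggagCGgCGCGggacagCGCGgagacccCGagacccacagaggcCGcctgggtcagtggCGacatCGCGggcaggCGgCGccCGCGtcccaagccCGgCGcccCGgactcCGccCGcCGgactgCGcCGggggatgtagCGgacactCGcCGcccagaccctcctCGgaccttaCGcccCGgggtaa
Kcng4: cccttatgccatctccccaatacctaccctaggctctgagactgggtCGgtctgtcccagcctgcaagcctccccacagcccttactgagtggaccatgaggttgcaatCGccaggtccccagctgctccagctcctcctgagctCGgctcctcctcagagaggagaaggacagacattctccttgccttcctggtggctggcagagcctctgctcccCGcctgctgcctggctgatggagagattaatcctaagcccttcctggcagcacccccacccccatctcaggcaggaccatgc
Kcna5: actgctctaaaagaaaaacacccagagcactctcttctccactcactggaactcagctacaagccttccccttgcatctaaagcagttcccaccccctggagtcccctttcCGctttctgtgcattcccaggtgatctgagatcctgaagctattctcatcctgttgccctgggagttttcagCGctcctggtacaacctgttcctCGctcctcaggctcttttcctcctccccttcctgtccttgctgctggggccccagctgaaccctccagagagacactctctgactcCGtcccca
Kcnj5: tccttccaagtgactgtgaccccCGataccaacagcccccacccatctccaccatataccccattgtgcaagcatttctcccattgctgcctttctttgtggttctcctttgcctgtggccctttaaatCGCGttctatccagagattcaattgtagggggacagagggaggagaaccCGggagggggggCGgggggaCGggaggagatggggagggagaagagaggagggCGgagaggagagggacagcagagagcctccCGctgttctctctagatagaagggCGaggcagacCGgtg
Kcnj4 held 41 CG, Kcng4 4, Kcna5 4 and Kcnj5 10. Windows rich and poor in CG both occurred among cortex genes, since Kcnf1 held 3.

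Among the Kv1 subunits, which hold down excitability in axons, Kcna1 and Kcna2 were lowest in hypothalamus and highest in brainstem. Kcna1 (chr6:126640397-126646384, GRCm38) had 73.6, 82.7 and 94.1 CPM as the lowest, median and highest of the 6 wild-type hypothalamus libraries, 322, 328 and 343 CPM in cortex, and 594, 747 and 889.9 CPM in brainstem. The 3 ranges did not overlap, and the log2 fold change of hypothalamus against brainstem was -3.17 (edgeR adjusted p = 7.25e-23, SE 0.09). Kcna2 followed the same order at 42.96 ± 4.47, 80.8 ± 5.37 and 136 ± 16.8 CPM (SD, n = 6). Kcna5 ran the other way, with 22.7, 24.5 and 27.3 CPM in hypothalamus against 2.398, 3.102 and 3.42 CPM in cortex and 3.86, 4.27 and 4.69 CPM in brainstem. Every wild-type hypothalamus library was thus above every wild-type library of the other tissues, by a log2 fold change of 3.02 (SE 0.10) over cortex and 2.54 (SE 0.10) over brainstem. Kcna3 and Kcna4, the latter a subunit of A-type currents, were also higher in hypothalamus than in brainstem, with log2 fold changes of 1.29 (SE 0.25) and 1.03 (SE 0.08). The composition of the family differed with this. Kcna1 made up 26.1% ± 1.74 of the family's summed level per kilobase in hypothalamus, 65.7% ± 0.818 in cortex and 79.2% ± 1.17 in brainstem, and in hypothalamus Kcna6 led with 34.2% ± 0.760. A gene on the opposite strand overlaps 39.6% of the exon bases of Kcna6, so its level is uncertain: the kit marks strand, but the strand setting of the counting is not given in the sources used here.

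Kv3 channels repolarise fast and let neurons fire at high rates. Kcnc1 was higher in brainstem than in hypothalamus, at 337 ± 15.7 CPM against 189 ± 12.7 CPM. Kcnc2 was highest in cortex at 160.3 ± 5.29 CPM, and Kcnc4 passed the test in none of the 3 comparisons, with 73.9 ± 5.78, 73.6 ± 2.43 and 79.9 ± 4.13 CPM in hypothalamus, cortex and brainstem.

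The A-type channel gene Kcnd2 of the Kv4 family passed in none of the 3 comparisons, with 119.7 ± 15.4, 122 ± 5.67 and 115 ± 8.36 CPM in hypothalamus, cortex and brainstem. Its relative Kcnd3 was highest in hypothalamus at 118 ± 10.4 CPM, with 94.2 ± 6.46 CPM in cortex and 68.97 ± 3.81 CPM in brainstem, and Kcnd1 ran in the opposite order.

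Silent Kv subunits showed large and opposite tissue patterns. Kcng4 (chr8:119623854-119635680) was highest in brainstem, where its wild-type libraries had 94.9, 113 and 118 CPM as lowest, median and highest, against 8.84, 9.58 and 11.2 CPM in cortex and 3.03, 3.79 and 4.65 CPM in hypothalamus. The ranges were apart, and brainstem was 29.2-fold above hypothalamus, with a log2 fold change of hypothalamus against brainstem of -4.87 (edgeR adjusted p = 2.29e-27, SE 0.09). Kcnv1 and Kcnf1 were highest in cortex. Kcnv1 stood at 126, 137 and 143 CPM in cortex, 9.401, 9.78 and 16.7 CPM in hypothalamus and 1.697, 2.34 and 2.93 CPM in brainstem, a log2 fold change of cortex against brainstem of 5.88 (edgeR adjusted p = 7.73e-29, SE 0.10). Kcnf1 had 147 to 155 CPM in cortex, 49.5 to 131 CPM in hypothalamus and 5.495 to 7.33 CPM in brainstem. The highest hypothalamus value of each gene was in a library with high Slc17a7, and without the 5 libraries the log2 fold change of hypothalamus against brainstem was 2.09 for Kcnv1 and 3.04 for Kcnf1, beside 2.34 and 3.36 with them. Kcns1 was likewise highest in cortex, at 22.5 ± 0.968 CPM against 1.94 ± 0.695 CPM in hypothalamus, and Kcng1 had 29.99 ± 3.23 and 6.71 ± 1.795 CPM. Both had their highest hypothalamus value in replicate 3 of the knockout-line wild type, and without the 5 libraries the log2 fold change of hypothalamus against cortex was -3.57 for Kcns1 and -2.42 for Kcng1, beside -3.54 and -2.17 with them. Of the 10 silent subunit genes, 8 were lower in hypothalamus than in cortex and 1, Kcnv2, was called higher, on 6 to 22 raw counts per wild-type hypothalamus library and 2 counts in all in the 6 cortex libraries. Per kilobase, Kcng4 made up 65.2% ± 1.90 of the silent subunits in brainstem and 2.88% ± 0.231 in cortex, where Kcnf1 (35.5% ± 0.988) and Kcnv1 (33.2% ± 1.07) led.

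**Figure D2:**
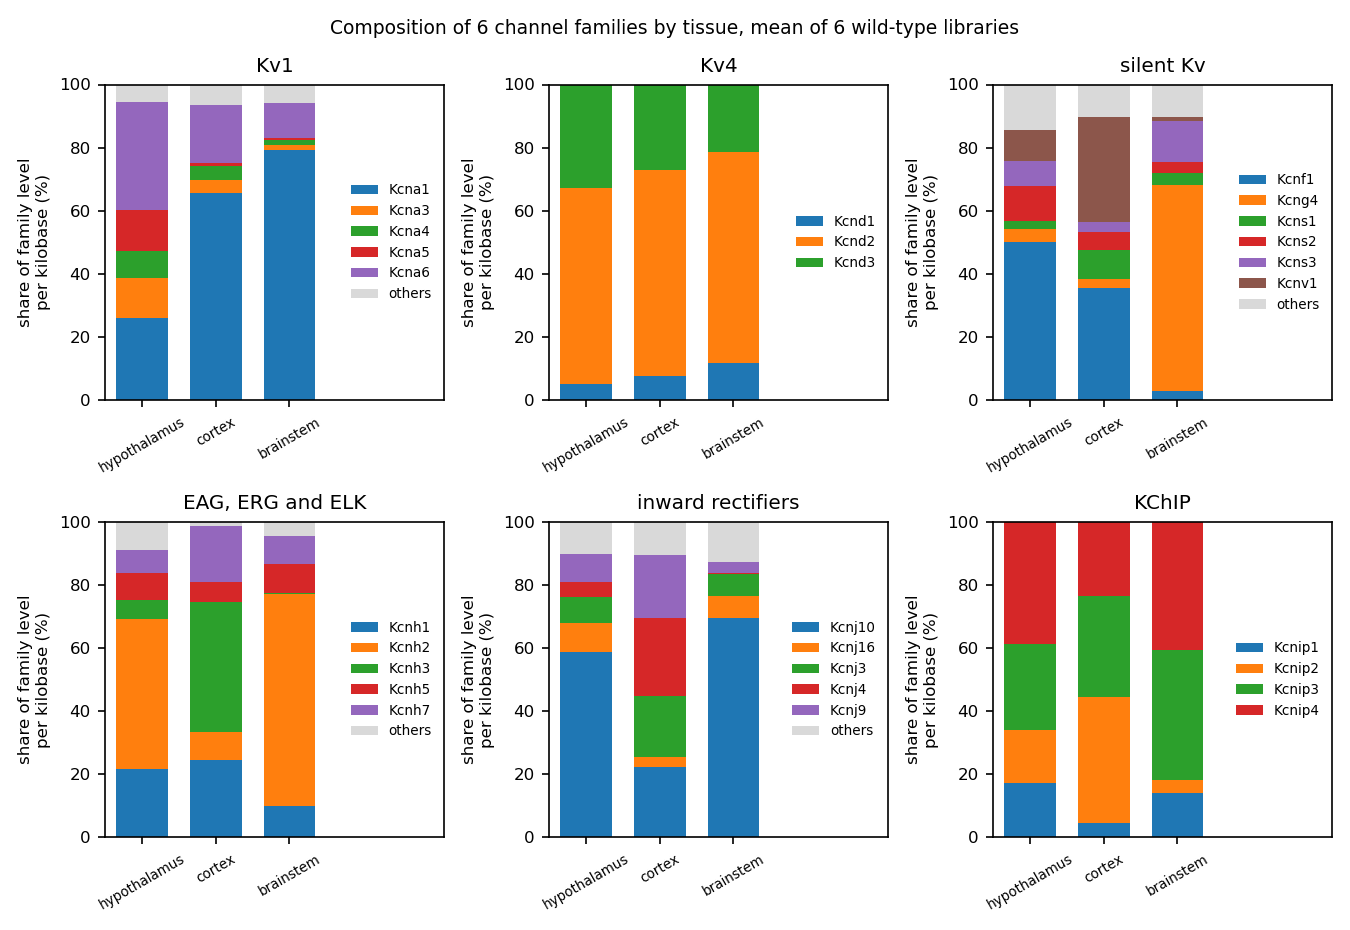
Stacked bars give each member's share (y axis, percent of the family's summed CPM per kilobase, mean of 6 wild-type libraries) in 6 families by tissue (x axis), with the smaller members of a family pooled as others. Kcna1 makes up 26.1% of Kv1 in hypothalamus and 79.2% in brainstem, and Kcng4 3.97% and 65.2% of the silent subunits.

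In the EAG, ERG and ELK group Kcnh2 led per kilobase in hypothalamus and brainstem and Kcnh3 in cortex. Kcnh3, an ELK channel gene of forebrain neurons, had 179, 187 and 192 CPM in cortex and 0.542, 0.867 and 1.99 CPM in brainstem, with 3.801, 6.73 and 41.1 CPM in hypothalamus. The log2 fold change of cortex against brainstem was 7.51 (edgeR adjusted p = 5e-14, SE 0.45). Without the 5 libraries, hypothalamus against cortex moved from -4.09 to -5.48 and hypothalamus against brainstem from 3.42 to 2.02, with the calls kept. Kcnh8, another ELK gene, was highest in hypothalamus at 5.11, 6.63 and 9.78 CPM, against 0.342 to 0.664 CPM in cortex and 2.67 to 4.03 CPM in brainstem. It had 7.24 to 9.78 CPM in the 3 wild-type libraries with pituitary transcripts and 5.11 to 6.03 CPM in the other 3, and its log2 fold change of hypothalamus against cortex was 3.93 with the 5 libraries and 3.48 without them. The part of pituitary transcripts in this level was not tested. Kcnh2, the ERG gene that also carries a cardiac repolarising current, was lowest in cortex, with 32.1 to 36.5 CPM there, 72.9 to 79.7 CPM in hypothalamus and 122 to 166 CPM in brainstem. Neither gene's hypothalamus range overlapped that of another tissue. The ERG gene Kcnh7 and the EAG gene Kcnh1 were highest in cortex, at 209.5 ± 12.6 and 139.8 ± 4.68 CPM, with 37.1 ± 7.09 and 52.2 ± 3.64 CPM in hypothalamus. Kcnh2 accounted for 67.2% ± 2.91 of the group per kilobase in brainstem and 8.98% ± 0.542 in cortex, where Kcnh3 made up 41.3% ± 1.08.

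Kv7 subunits carry the M-current, which muscarinic receptors shut off. Kcnq5 was lower in hypothalamus than in cortex, with 30.95, 33.2 and 36.3 CPM in hypothalamus, 150.2, 156 and 165 CPM in cortex and 17.2, 20.2 and 26.8 CPM in brainstem. Its ranges were apart, and the log2 fold change of hypothalamus against cortex was -2.24 (edgeR adjusted p = 6.70e-21, SE 0.08). Kcnq3 was at 293 ± 14.1 CPM in cortex and 106 ± 4.04 CPM in hypothalamus, and was lower in hypothalamus too.

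Among inward rectifiers, Kcnj4 was the gene that most set cortex apart. It had 103, 107 and 111 CPM in cortex, 6.86, 11.9 and 48.8 CPM in hypothalamus and 0.254, 0.404 and 1.31 CPM in brainstem, and cortex against brainstem gave a log2 fold change of 7.56 (edgeR adjusted p = 7.04e-16, SE 0.38). Without the 5 libraries its log2 fold change of hypothalamus against cortex moved from -2.73 to -3.51. Kcnj10 had 915 to 1092 CPM in brainstem, 476 to 582 CPM in hypothalamus and 231 to 257 CPM in cortex, with no overlap. Its channel partner Kcnj16 was lowest in cortex as well, at 24.7 ± 2.03 CPM against 60.4 ± 4.61 in hypothalamus and 73.8 ± 6.08 in brainstem. The summed level of 5 astrocyte markers was 1384 to 1751 CPM in wild-type hypothalamus, 1099 to 1228 CPM in cortex and 1577 to 1838 CPM in brainstem, and that of 5 oligodendrocyte markers was 3897 to 4703 CPM, 3470 to 4411 CPM and 16810 to 17950 CPM. The part of glial content in the Kcnj10 and Kcnj16 levels was not tested. Kcnj13, an epithelial rectifier, had 9.63 to 27.4 CPM in brainstem and at most 1.94 CPM in either other tissue of the wild types, and an opposite-strand gene, Gigyf2, overlaps 49.1% of its exon bases.

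The G-protein-gated inward rectifiers (GIRK), opened by inhibitory transmitters, are encoded by Kcnj3, Kcnj5, Kcnj6 and Kcnj9. Kcnj5 (chr9:32314707-32344350) was the one that was highest in hypothalamus, with 13.7, 14.9 and 18.7 CPM there, 0.843 to 0.982 CPM in cortex and 0.881 to 1.2 CPM in brainstem. Its hypothalamus range lay above both others, with a log2 fold change over cortex of 4.1 (edgeR adjusted p = 7.41e-19, SE 0.18). It made up 9.85% ± 1.32 of the GIRK level per kilobase in hypothalamus, against 0.234% ± 0.0157 in cortex and 0.753% ± 0.109 in brainstem. Kcnj9 and Kcnj3 were the main members, at 44.9% ± 3.695 and 40.5% ± 4.77 in hypothalamus, 48.3% ± 0.996 and 46.7% ± 1.08 in cortex, and 32.2% ± 4.304 and 63.4% ± 3.98 in brainstem. An opposite-strand gene overlaps 31.1% of the exon bases of Kcnj3.

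Tandem-pore channels carry the background leak that sets the resting potential. Kcnk1 was at 57.04 ± 1.92 CPM in hypothalamus, 97.0 ± 3.91 CPM in cortex and 143 ± 5.89 CPM in brainstem, and each step passed the test. Kcnk2, a mechanically and thermally gated leak channel, had 66.1, 69.03 and 72.2 CPM in hypothalamus and 57.5, 59.5 and 65.7 CPM in cortex, above the 20.2, 21.4 and 22.4 CPM of brainstem. Its log2 fold change of hypothalamus against brainstem was 1.70 (edgeR adjusted p = 2.06e-22, SE 0.05), and an opposite-strand gene overlaps 12.2% of its exon bases. Its relative Kcnk4 was highest in cortex at 18.8 ± 0.943 CPM, against 2.54 ± 0.419 in hypothalamus and 4.16 ± 0.674 in brainstem, and shares 13.1% of its exon bases with a gene on the same strand. Of the 11 tandem-pore genes tested, 8 were lower in hypothalamus than in brainstem and 2 higher. Kcnk7 was called higher in hypothalamus than in cortex on 4 to 13 raw counts per wild-type library against 0 to 2.

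The BK pore gene Kcnma1, whose channels open on calcium and depolarisation, was highest in cortex at 107 ± 6.74 CPM, with 42.7 ± 3.32 in hypothalamus and 44.8 ± 4.11 in brainstem. Its neuronal beta subunit gene Kcnmb4 peaked there as well, at 55.4 ± 2.84 CPM against 18.5 ± 0.951 in hypothalamus and 10.9 ± 3.51 in brainstem. Opposite-strand genes overlap 31.5% of its exon bases. In brainstem, Kcnmb4 had 172, 136 and 530 raw counts in the transgenic-line wild type and 491, 434 and 360 in the other. Cerebellum markers summed to 94.8, 109 and 574 CPM and to 397.5, 425.8 and 134.5 CPM in the same libraries. The part of cerebellar content in its brainstem level was not tested. The smooth muscle beta subunit gene Kcnmb1 was higher in hypothalamus, at 2.45 ± 0.357 CPM against 0.872 ± 0.225 in cortex and 1.04 ± 0.212 in brainstem. SK channels carry the afterhyperpolarisation that follows spikes. Among their genes, Kcnn1 and Kcnn2 were lower in hypothalamus than in both other tissues, and Kcnn3 was higher, at 10.8 ± 1.32 CPM against 5.53 ± 0.473 in cortex and 5.06 ± 0.421 in brainstem. The sodium-activated channel gene Kcnt2 had 58.2 to 66.6 CPM in cortex, 14.7 to 16.8 CPM in hypothalamus and 5.19 to 9.56 CPM in brainstem, with no overlap.

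All 3 Kv beta genes, whose proteins bind Kv1 pores, were lowest in hypothalamus and highest in brainstem. Kcnab2 had 158, 166 and 180.4 CPM in hypothalamus, 428, 444 and 474 CPM in cortex and 513, 532 and 615 CPM in brainstem, with no overlap between tissues. Kcnab1 stood at 47.9 ± 4.79, 101 ± 4.95 and 168 ± 13.2 CPM in the same order. Kcnab3 was highest among wild-type hypothalamus libraries in replicate 1 of the knockout line, and its log2 fold change of hypothalamus against brainstem was -2.32 with the 5 libraries and -2.63 without them. The KChIP genes encode calcium-binding partners of Kv4 pores. Kcnip2 was highest in cortex, with 125, 131 and 134 CPM against 27.1, 34.5 and 54.4 CPM in hypothalamus and 6.65, 7.42 and 8.95 CPM in brainstem, a log2 fold change of cortex against brainstem of 4.1 (edgeR adjusted p = 6.86e-23, SE 0.12). Its highest hypothalamus value was in the same library, and hypothalamus against brainstem moved from 2.25 to 2.04 without the 5. Kcnip1 was highest in hypothalamus at 65.9 ± 6.19 CPM, against 27.4 ± 1.28 in cortex and 45.5 ± 2.51 in brainstem. Kcne2, an accessory subunit gene of the choroid plexus and other epithelia, had 10.4, 23.6 and 27.6 CPM in brainstem against at most 0.178 CPM in hypothalamus and 0.666 CPM in cortex. Choroid plexus markers (Ttr, Folr1, Kl and Clic6) summed to 1224 to 3005 CPM in brainstem, 38.4 to 51.5 CPM in hypothalamus and 11.3 to 93.6 CPM in cortex of the wild types. Replicate 3 of the transgenic-line wild type was the lowest wild-type brainstem library for these markers, for Kcne2 and for Kcnj13. The part of choroid plexus content in the levels of these genes was not tested.

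**Figure D3:**
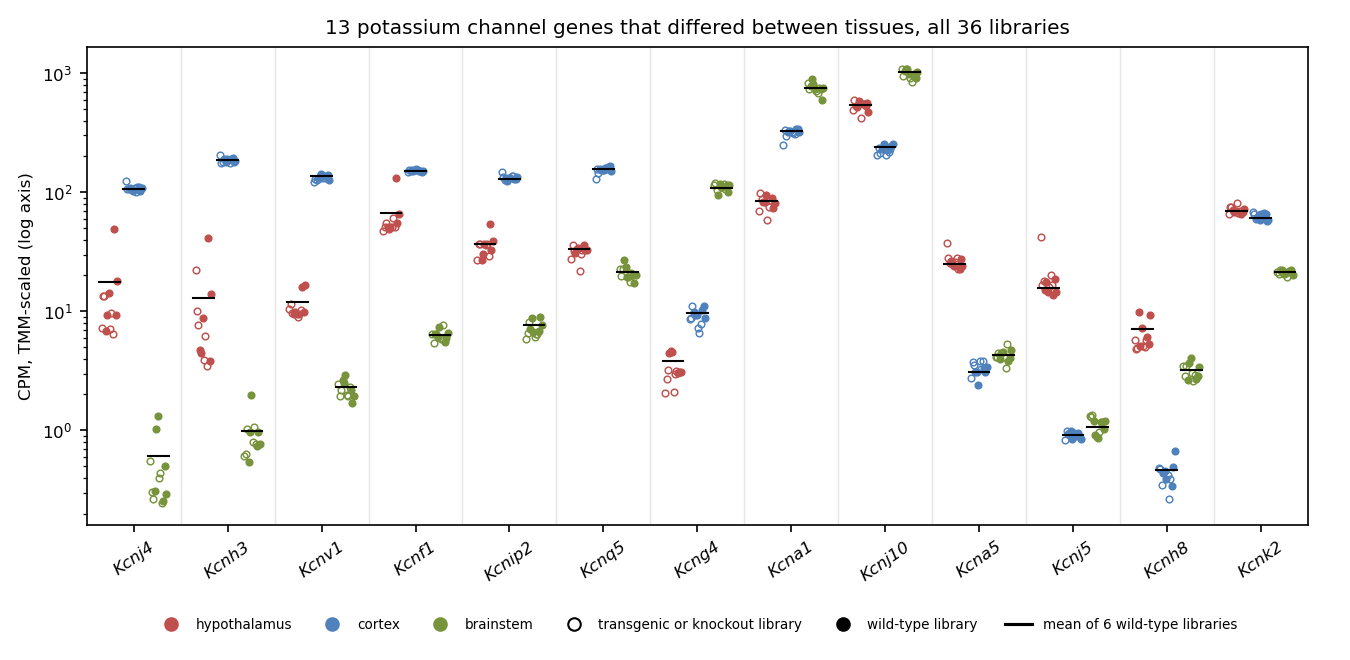
CPM (y axis, log scale) of 13 members in all 36 libraries, coloured by tissue, with filled points for wild types, open points for transgenic and knockout libraries and bars for the mean of 6 wild types. Among wild types, Kcnj4, Kcnh3, Kcnv1, Kcnf1, Kcnip2 and Kcnq5 are highest in cortex, Kcng4, Kcna1 and Kcnj10 in brainstem, and Kcna5, Kcnj5, Kcnh8 and Kcnk2 in hypothalamus.

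The tissue differences were also present in the transgenic and knockout libraries. With the 6 such libraries of each tissue in place of the wild types, every named tissue difference that could be fitted kept its direction and its call. Across all alternatives the number of members differing was 67 to 72 between hypothalamus and cortex, 65 to 73 between hypothalamus and brainstem and 65 to 73 between cortex and brainstem.

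Other genes that act with potassium channels differed in both directions between tissues. Of 24 such partners (auxiliary, scaffold and related cation channel genes), 23 were tested. In hypothalamus 8 were higher and 12 lower than in cortex, and 8 higher and 10 lower than in brainstem. In cortex 9 were higher and 11 lower than in brainstem. For the pacemaker channel gene Hcn2 the log2 fold change of hypothalamus against brainstem was -1.79 (SE 0.06, edgeR adjusted p = 8.97e-21), and for Abcc8, the sulfonylurea receptor that pairs with Kcnj11, that of hypothalamus against cortex was -1.78 (SE 0.07, edgeR adjusted p = 7.28e-21).

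Between genotypes no member passed the test in any tissue. In transgenic against its wild type, edgeR called 0 of 78 members in hypothalamus (0.00597% of all genes), 0 of 76 in cortex (0% of all genes) and 0 of 78 in brainstem (0.00606%). In knockout against its wild type the counts were 0 of 78 in hypothalamus (0.0119%), 0 of 76 in cortex (0.0789%) and 0 of 78 in brainstem (0.0728%). At an unadjusted p under 0.05 edgeR gave 4, 6 and 2 members in transgenic hypothalamus, cortex and brainstem, where 4.16%, 5.09% and 8.35% of all genes were. In knockout it gave 9, 4 and 4 (3.89%, 3.3% and 3.24% of all genes). DESeq2 and voom with quality weights called 0 members in all 6 comparisons. Median log2 fold changes of the members lay between -0.08, in knockout hypothalamus, and 0.02, in knockout brainstem, and 47 to 68 members per comparison differed by less than 0.2 on the log2 scale. The median SE of a member's log2 fold change was 0.17 for hypothalamus and 0.09 and 0.11 for cortex and brainstem, so differences had to be larger in hypothalamus to be detectable. None of the tested partners was called either.

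**Figure D4:**
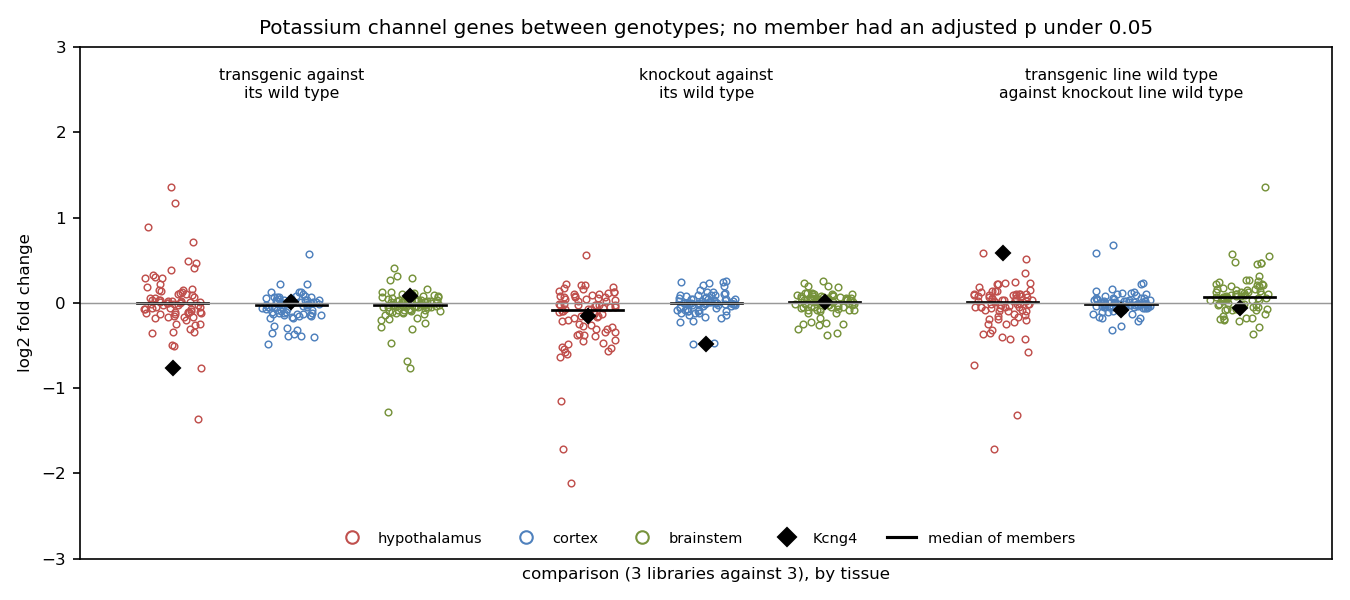
Log2 fold changes (y axis) of the tested members in 9 genotype comparisons, 3 libraries against 3, by tissue (x axis and colour), with bars for the median and diamonds for Kcng4. Medians lie between -0.08 and 0.07, and no point had an adjusted p under 0.05.

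Kcng4 had the smallest p of all members in transgenic hypothalamus. It stood at 2.07, 2.68 and 3.24 CPM in the 3 transgenic libraries and 4.495, 4.65 and 4.57 CPM in their wild type. The groups did not overlap, as for 15 of the 78 members (19.2%), 5 higher and 10 lower, where 9.64% of all genes were apart. The log2 fold change was -0.77 (edgeR adjusted p = 1, SE 0.18). The wild type of the knockout line was lower than that of the transgenic line, at 3.03, 3.08 and 3.07 CPM, with a log2 fold change between them of 0.58 (edgeR adjusted p = 1, SE 0.18), and the knockout hypothalamus held 2.12, 2.95 and 3.14 CPM. Under all 15 alternatives Kcng4 was lower in transgenic than in wild-type hypothalamus, from -0.93 to -0.63, with adjusted p from 0.101 to 1. In brainstem, where the gene is abundant, the transgenic libraries held 115, 119 and 105 CPM and their wild type 94.9, 118 and 110.0 CPM, and these overlapped. The effect in hypothalamus minus that in brainstem was -0.85 (SE 0.17, edgeR adjusted p = 0.189). DESeq2 put that difference past the threshold (adjusted p = 0.00683), as it did for 0.0566% of all genes, and over its 8 alternatives the adjusted p ran from 0.00683 to 1. In knockout cortex Kcng4 was 7.22, 6.51 and 7.81 CPM against 10.2, 11.2 and 8.84 CPM, without overlap, with a log2 fold change of -0.48 (edgeR adjusted p = 0.474, SE 0.12). Transgenic cortex held 8.68, 8.74 and 11.1 CPM against 9.79, 9.29 and 9.36 CPM.

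Other members with small unadjusted p in transgenic hypothalamus did not pass either. Kcnj5 had 42.1, 16.7 and 17.8 CPM against 15.2, 17.6 and 14.6 CPM, a log2 fold change of 0.72 (edgeR adjusted p = 1, SE 0.32). Only the replicate with nasal transcripts was high, and without the 4 libraries that held nasal or pituitary transcripts, which leaves 2 transgenic libraries and 1 wild type, the value was -0.04. The strong inward rectifier gene Kcnj2 had its highest value, 30.7 CPM, in the same library, against 16.3 to 19.8 CPM in the other 5. Without the 5 libraries its log2 fold change moved from 0.41 to 0.09. Kcnj1, which encodes the renal potassium secretion channel, Kcnj15 and the BK beta subunit gene Kcnmb3 did not pass the filter on low counts. They had 106, 812 and 251 raw counts in the library with nasal transcripts and at most 4, 10 and 5 in any other of the 36.

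In knockout hypothalamus, Kcnv1, Kcnj4 and Kcnh7 had the smallest p among members below their wild type. Kcnv1 and Kcnj4 were higher in wild-type replicates 1 and 3, those with high Slc17a7, than in replicate 2. Kcnh7 was high in replicate 1 alone. Kcnv1 had 8.97, 9.53 and 10.2 CPM in knockout and 16.1, 9.79 and 16.7 CPM in its wild type, where replicates 1 and 3 were the high values, and its log2 fold change was -0.57 (edgeR adjusted p = 0.806, SE 0.17). Kcnj4 had 7.05, 9.58 and 6.48 CPM against 48.8, 9.298 and 17.9 CPM, at -1.72 (edgeR adjusted p = 0.806, SE 0.56). Kcnh7 had 21.5, 28.7 and 33.1 CPM against 51.4, 34.2 and 35.2 CPM, at -0.53 (edgeR adjusted p = 0.806, SE 0.17). For Kcnh7, wild-type replicate 3 was near replicate 2, and replicate 1 of the knockout was the lowest library. Replicates 1 and 3 are 2 of the 3 wild-type libraries, so a highest value in either carries little weight. Without the 5 libraries, and so with replicate 2 as the lone wild type, the log2 fold changes were -0.03 for Kcnv1, -0.26 for Kcnj4 and -0.29 for Kcnh7. Without replicate 2 of the wild type, the only one of the 3 with low Slc17a7, Kcnv1 passed the threshold (-0.78, edgeR adjusted p = 0.0377, and 0.0377 to 1 over its alternatives), as did 0.0295% of all genes. The part of these transcripts in the genotype values was not tested beyond this. Kcnh6, an ERG gene, had the smallest p among members above their wild type, at 7.15, 9.56 and 6.45 CPM against 5.83, 5.55 and 4.31 CPM, which were apart, with a log2 fold change of 0.57 (edgeR adjusted p = 0.806, SE 0.19).

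**Figure D5:**
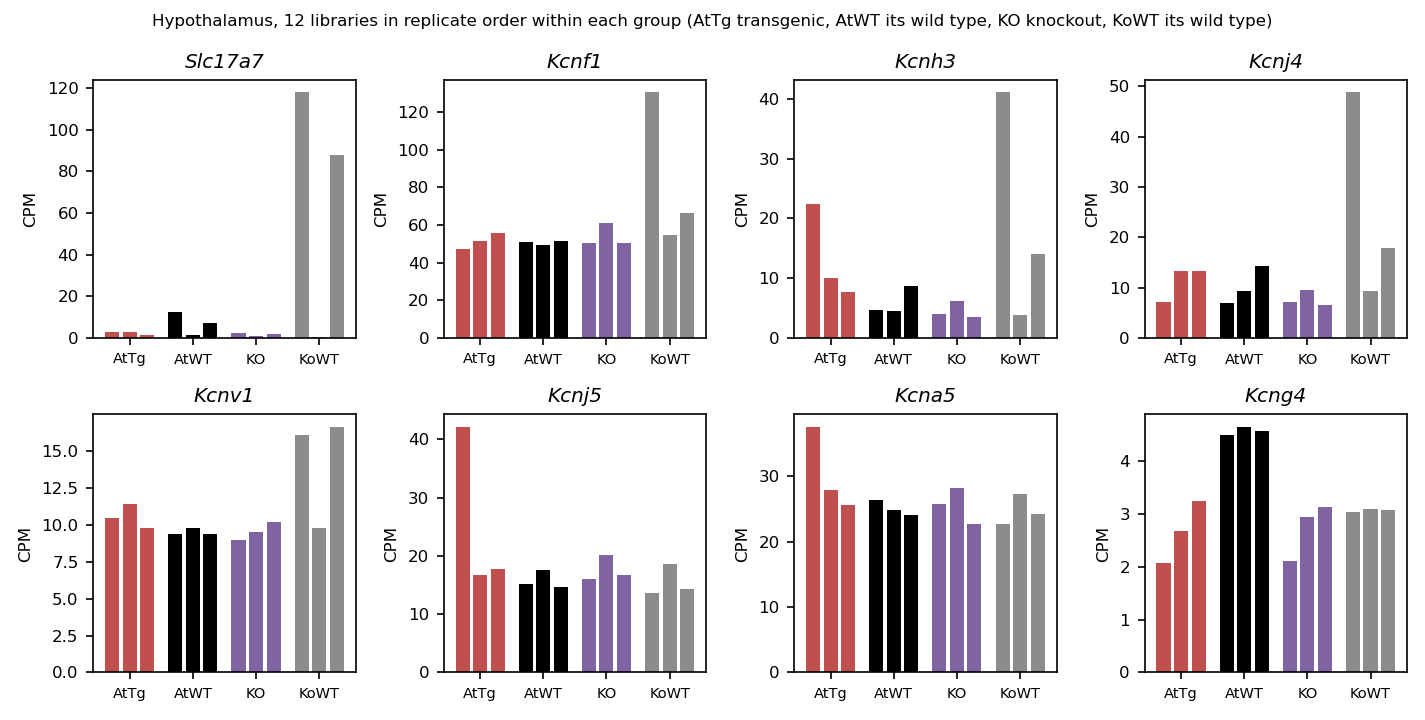
CPM (y axis, from 0) of Slc17a7 and 7 members in each of the 12 hypothalamus libraries, grouped by genotype (x axis) in replicate order. Kcnf1, Kcnh3 and Kcnj4 are highest in replicate 1 of the knockout-line wild type, Kcnv1 is high in its replicates 1 and 3, Kcnj5 and Kcna5 are highest in transgenic replicate 1, and Kcng4 is highest in the transgenic-line wild type.

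In cortex and brainstem the genotype values were tighter. Kcnh2 in knockout cortex had 31.9, 30.1 and 30.6 CPM against 35.5, 32.9 and 36.5 CPM, apart but not past the test, at -0.18 (edgeR adjusted p = 1, SE 0.06). Kcnj10 there had 206, 228 and 218 CPM against 233, 243 and 257 CPM, at -0.17 (edgeR adjusted p = 1, SE 0.07). These groups were apart as well. Kcnt1, a sodium-activated channel gene, had 122, 124 and 116 CPM in knockout brainstem against 107, 106 and 106 CPM, at 0.18 (edgeR adjusted p = 1, SE 0.06). Its relative Kcnt2 had 5.79, 4.71 and 5.89 CPM in transgenic brainstem against 9.56, 6.74 and 6.39 CPM, at -0.47 (edgeR adjusted p = 0.542, SE 0.15). Both were apart and neither passed. Members whose groups did not overlap numbered 8 of 76 in transgenic and 9 of 76 in knockout cortex (9.01% and 10.7% of all genes), 6 and 7 of 78 in brainstem (12.4% and 9.68%), and 7 of 78 in knockout hypothalamus (7.12%).

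The wild types of the lines were compared directly, and edgeR called 0 members in hypothalamus, cortex and brainstem (0% of all genes in each). At an unadjusted p under 0.05 there were 5, 2 and 12 members (2.29%, 3.26% and 14.9% of all genes), so the 12 of 78 in brainstem were near the share of all genes. DESeq2 called 0, 0 and 1 (in brainstem 5.16% of the genes that it gave an adjusted p). That gene was Kcnh7 in brainstem, at 80.95, 68.1 and 53.4 CPM in the transgenic line and 50.02, 42.3 and 53.9 CPM in the knockout line, with a log2 fold change of 0.46 (edgeR adjusted p = 0.191, SE 0.13). The groups overlapped through replicate 3 of the transgenic-line wild type. Without that replicate, 4 members passed with edgeR, namely Kcnh7, Kcnq3, Kcnq5 and Kcnt2, at log2 fold changes of 0.60, 0.39, 0.38 and 0.58. In that fit 7.06% of all genes passed. The remaining replicates 1 and 2 had 10.1% and 15.2% of their counted total outside annotated features, against 6.38% to 7.33% in the other 10 brainstem libraries. Their cerebellum markers summed to 94.8 and 109 CPM, against 574 CPM in replicate 3. The knockout-line wild type had 397.5, 425.8 and 134.5 CPM. Choroid plexus markers summed to 2490 and 3005 CPM in replicates 1 and 2 and 1224 CPM in replicate 3, against 2373 to 2885 CPM in the knockout-line wild type. The part of these traits in the difference was not tested. Without replicate 1 or without replicate 2, edgeR called 0 members. Without replicate 3, Kcnh7 also passed in transgenic against wild-type brainstem (-0.43, edgeR adjusted p = 0.0413, and 0.0413 to 0.96 over its alternatives). There 2.74% of all genes passed.

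The difference between the transgenic and knockout effects was called by edgeR for 0 members in each tissue (0%, 0.0243% and 0% of all genes in hypothalamus, cortex and brainstem), with 4, 3 and 2 members at an unadjusted p under 0.05 (2.26%, 3.13% and 4.75% of all genes) and 0 called by DESeq2. No genotype effect differed between tissues for any member by edgeR in the 6 comparisons of regions (0% to 0.00564% of all genes), in which DESeq2 called Kcng4 alone. At an unadjusted p under 0.05 the transgenic effect differed for 2 of 80 members (4.73% of all genes) between hypothalamus and cortex, 6 of 80 members (6.92% of all genes) between hypothalamus and brainstem and 0 of 80 members (2.87% of all genes) between cortex and brainstem. For the knockout effect the counts were 8 of 80 members (4.07% of all genes), 7 of 80 members (5.62% of all genes) and 1 of 80 members (1.55% of all genes) in the same order.

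The remaining 9 members did not pass the filter over all libraries. Kcnk16, a tandem-pore gene, had 0 counts in all 36 libraries, which allows up to 3 counts per library. Kcna7, Kcna10, Kcne1, Kcne3 and Kcnk18 had at most 16 counts in any library, and Kcnj1, Kcnj15 and Kcnmb3 are described above. In the fits within a tissue, Kcne2, Kcnk7, Kcnk15, Kcnn4 and Kcnv2 passed in only some of the 3 tissues. Kcnk15 had 84 counts in replicate 1 of the knockout-line wild-type hypothalamus and at most 4 in any other hypothalamus library.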

How the data were processed

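RNA of 36 libraries, 3 per genotype and tissue, was prepared with a stranded mRNA kit, per the labels' protocols. The authors deposited a table of raw counts per gene for each library. Per the submitters' processing notes the tools were cutadapt 1.2.1, TopHat2 2.0.9 and HTSeq 0.5.4p3 with GRCm38. Neither the strand setting nor the annotation release of the counting is given in the sources used here, and 25 members share exon bases with an opposite-strand gene. Lines for unassigned reads held 24.7% to 41.967% of each total and were left out. Symbols came from GENCODE M21 for 37607 of 38924 identifiers. The pattern matched 92 genes, of which 3 were left out by name.

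The test was edgeR's quasi-likelihood test on the counts (edgeR 4.0.16, R 4.3.3, TMM factors, default filter by group) and Benjamini-Hochberg adjustment over all tested genes, at a threshold of 0.05. The 12 libraries of a tissue entered 1 fit for genotypes, which left 16738, 16479 and 16493 genes in hypothalamus, cortex and brainstem. All 36 libraries entered 1 fit for tissues and for effects between regions, which left 17744 genes. Variation of a gene between libraries of a group, beyond counting error, was 18% (coefficient of variation) for hypothalamus and 7.35% and 9.03% for cortex and brainstem. It may be technical. Standard errors were derived from the test and are approximate. CPM were computed here. The fits were tested on simulated data. Alternatives were DESeq2 1.42.0, voom with quality weights (limma 3.58.1), relative log expression factors, other filters, only the groups compared, a replicate block, leaving out each library, and leaving out 4 or 5 hypothalamus libraries. A count of 0 allows up to 3 counts, for counting error only. Between tissues, up to 10 members per direction were named by size of change among those called, between genotypes 3 per direction by smallest p, and 8 per tissue by level per kilobase. Members and lists were chosen with earlier results of these data known. Some members are not reported here by name.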

Additional observations from a re-analysis of the deposited data

Results flagged for a closer look

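In 14 of 88 groups of 6 wild-type libraries, the gap between 1 library and its nearest neighbour took more than 0.625 of the group's whole range. Chance gives about 1 in 20 such groups if values are normally distributed, which low counts are not. The 88 do not cover every member in every tissue, and Kcnk15 in hypothalamus, described above, is not among the 14. In hypothalamus, 6 were in replicate 1 of the knockout-line wild type, a library with high Slc17a7, which held the highest values of Kcnab3 (43.3 CPM, nearest 20.7, ratio 0.813), Kcnf1 (131 CPM, nearest 66.2, ratio 0.793), Kcnh3 (41.1 CPM, nearest 14.1, ratio 0.725), Kcnh7 (51.4 CPM, nearest 35.6, ratio 0.845), Kcnj4 (48.8 CPM, nearest 17.9, ratio 0.737) and Kcnn4 (0.789 CPM, nearest 0.583, ratio 0.629). Replicate 3 of the same group held the highest values of Kcng1 (10.2 CPM, nearest 6.62, ratio 0.667) and Kcns1 (3.25 CPM, nearest 1.93, ratio 0.686). In cortex, replicate 3 of the transgenic-line wild type held the lowest Kcna5 (2.398 CPM, nearest 3.08, ratio 0.664), and replicate 3 of the knockout-line wild type the highest Kcnk5 (0.715 CPM, nearest 0.492, ratio 0.658). Replicate 2 of the transgenic-line wild type was the only wild-type cortex library with any count of Kcnv2, on 2 raw counts, as a level of 0.0531 CPM against 0 in the others, a ratio of 1.0. In brainstem, the transgenic-line wild types held the highest Kcng3 (0.809 CPM, nearest 0.348, ratio 0.830) in replicate 2, Kcnh3 (1.99 CPM, nearest 0.971, ratio 0.703) in replicate 3 and Kcnt2 (9.56 CPM, nearest 6.74, ratio 0.644) in replicate 1.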

How the results depend on the processing

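All 60 named tissue differences kept their direction and their side of the threshold under all 1273 alternatives run for them. Leaving out each library gave 70 to 71 members differing between hypothalamus and cortex, 70 to 72 between hypothalamus and brainstem and 65 to 69 between cortex and brainstem. Over all alternatives the members at least 2-fold higher and lower in the first tissue numbered 9 to 15 and 31 to 34, 11 to 17 and 17 to 21, and 22 to 25 and 14 to 18. Of 487 alternatives for 36 named genotype values, 483 kept direction and side, as did 236 of 242 between wild types, 336 of 336 between models and 256 of 260 between regions. The count of members called stayed at 0 except in 6 cases. Leaving out replicate 2 of the knockout-line wild-type hypothalamus gave 1 member in knockout, Kcnv1 (-0.78, edgeR adjusted p = 0.0377), and 1 between the wild types, Kcnv1 (-0.79, edgeR adjusted p = 0.0475), so that these counts ran from 0 to 1. Leaving out replicate 3 of the transgenic-line wild-type brainstem gave 1 in transgenic, Kcnh7 (-0.43), a range of 0 to 1. Between the wild types it gave 4, a range of 0 to 4, with edgeR adjusted p = 0.0041 for Kcnh7, 0.0117 for Kcnq3, 0.0265 for Kcnq5 and 0.0326 for Kcnt2. DESeq2 gave 1 between wild-type brainstems, Kcnh7 (0.46, adjusted p = 0.015), and 1 for the transgenic effect between hypothalamus and brainstem, Kcng4 (-0.85, adjusted p = 0.00683). Kcnj5 in transgenic hypothalamus reversed to -0.037 without the 4 libraries that held nasal or pituitary transcripts, and to -0.033 without 5, a set chosen after seeing the data. Either set leaves 2 transgenic libraries and 1 wild type. Without the 5, which leaves 1 library of each wild type, assumed to vary like the other groups, and so no replicate check, the values of Kcnv1 and Kcnj4 between wild-type hypothalami changed sign to 0.015 and 0.025, that of Kcnj5 for the transgenic effect in hypothalamus minus cortex to -0.006, that of Kcnh3 for the knockout effect in hypothalamus minus cortex to 0.27 and that of Kcnk15 in hypothalamus minus brainstem to 0.52. The cause was not tested. The data did not show that equal replicate numbers pair the libraries. They cannot exclude it, since deviations from a mean of 3 libraries depend on each other. Same-number correlations of deviations exceeded 0.1 in 5 of 9 pairs in hypothalamus, 1 of 9 in cortex and 3 of 9 in brainstem. The highest were 0.455, 0.151 and 0.337, and the highest between different numbers 0.611, 0.189 and 0.4. Between tissues, 0 of 12 same-number pairs exceeded 0.1 in each of the 3 comparisons. With a replicate block, Kcng4 in transgenic hypothalamus was -0.79 (edgeR adjusted p = 1), and the block changed no count of members called between genotypes. For the differences between models, using only the groups compared is the fit already reported and was not run separately.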
